A study of Mus musculus with 45 samples.

Results

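Hepatic expression was examined for 10 genes that serve as transcriptional targets of the tumor suppressor p53 or as regulators of growth arrest: Cdkn1a, Gadd45a, Gadd45b, Gadd45g, Mdm2, Ccng1, Btg2, Trp53inp1, Bax and Myc. They were picked by name for their roles, from 39179 genes listed, and not by their values, although results for other genes in these livers were known when they were picked. All 10 passed the filter on low counts, more than 4 reads in at least 1 liver. Female C57BL/6 mice received sesame oil, the vehicle, or TCDD by gavage. TCDD doses were 30, 10, 3, 1, 0.3, 0.1, 0.03 and 0.01 µg/kg, repeated at 4-day intervals over 28 days, and liver RNA was sequenced from 5 mice in each of the 9 groups. TCDD, a dioxin, activates the aryl hydrocarbon receptor (AhR), a ligand-activated transcription factor. The submitters' labels describe the mice as ovariectomized and also use the word daily for the gavage, while the methods of the study mention no surgery. Every group, the vehicle included, shares whatever surgery was done. Livers were whole tissue, so a lower or higher number of cells of a type cannot be told apart from less or more RNA per cell.

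In a stressed cell p53 is stabilized and switches on genes that halt division, repair DNA or trigger cell death. CDKN1A (p21) inhibits cyclin-dependent kinases and holds cells before S phase, while MDM2 is the ubiquitin ligase that degrades p53 and closes the feedback loop. The 3 GADD45 proteins are small stress proteins that bind cell cycle and MAP kinase partners, and their genes also respond to signals other than p53. Cyclin G1 (Ccng1) and TP53INP1 modulate p53 itself, BTG2 restrains proliferation, and BAX permeabilizes mitochondria during apoptosis. MYC is a transcription factor that drives growth and opposes Cdkn1a transcription, and it was included as the growth-promoting counterpart. In adult liver most hepatocytes are out of the cell cycle, and Cdkn1a, Gadd45 and Myc transcripts are known to respond to fasting, circadian time and injury.

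Promoter sequence is shown for Cdkn1a, Gadd45b and Mdm2, the brake, the stress gene and the p53 antagonist that rose at 30 µg/kg, since p53 and AhR each have a short recognition motif that can be read there. The 250 bases before each RefSeq start (GRCm38.p6) are given 5′ to 3′ on the strand of the gene. Cdkn1a has 2 starts in that table, chr17:29090729-29090978 and chr17:29093519-29093768 on the plus strand, Gadd45b has chr10:80929841-80930090 on the plus strand and Mdm2 has chr10:117710759-117711008 on the minus strand. Capitals in the first line mark matches to the p53 decamer, the 10-base motif of which a p53 response element holds a pair. In the other lines they mark the core of the dioxin response element, GCGTG, on either strand (CACGC is its complement). The same letters are also part of the hypoxia response element.
Cdkn1a, upstream start: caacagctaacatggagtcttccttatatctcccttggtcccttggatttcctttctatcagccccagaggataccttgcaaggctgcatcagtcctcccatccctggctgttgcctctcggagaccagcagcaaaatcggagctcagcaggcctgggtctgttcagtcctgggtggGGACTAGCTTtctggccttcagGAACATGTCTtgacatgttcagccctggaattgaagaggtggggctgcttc
Cdkn1a, downstream start: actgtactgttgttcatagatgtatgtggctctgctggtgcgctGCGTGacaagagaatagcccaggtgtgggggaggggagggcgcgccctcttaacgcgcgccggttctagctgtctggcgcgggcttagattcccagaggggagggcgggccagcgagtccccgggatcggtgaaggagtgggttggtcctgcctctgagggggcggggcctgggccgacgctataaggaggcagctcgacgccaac
Gadd45b: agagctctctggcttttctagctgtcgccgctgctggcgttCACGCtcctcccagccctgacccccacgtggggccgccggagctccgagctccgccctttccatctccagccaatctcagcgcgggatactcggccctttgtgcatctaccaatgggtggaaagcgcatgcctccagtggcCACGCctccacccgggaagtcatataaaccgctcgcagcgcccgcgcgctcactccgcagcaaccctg
Mdm2: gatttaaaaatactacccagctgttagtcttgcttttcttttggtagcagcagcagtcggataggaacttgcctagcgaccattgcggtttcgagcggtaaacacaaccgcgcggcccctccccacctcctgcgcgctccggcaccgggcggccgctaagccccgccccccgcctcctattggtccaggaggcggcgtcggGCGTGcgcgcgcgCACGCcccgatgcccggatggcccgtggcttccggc
RefSeq promoters were found for 8 of the 10 genes, 9 promoters in all. Myc and Trp53inp1 had no entry. The p53 decamer occurred in 5 of the 9 promoters, from Cdkn1a, Gadd45a, Mdm2, Ccng1 and Bax, and in 7.13% of all 32851 promoters. Many of the genes were picked as p53 targets, so this share is no result about these livers. Gadd45a and Ccng1 hold a match but did not pass the test at 30 µg/kg described below. Gadd45b and Gadd45g, both higher at that dose, hold none. The upstream Cdkn1a promoter held 2 matches, which begin 73 and 51 bases before the start. The GCGTG core occurred in 5 of the 9 promoters and in 28.2% of all promoters. Gadd45b and Mdm2 held 2 copies each, a number reached by 8.63% of all promoters, and Btg2, Ccng1 and the downstream Cdkn1a promoter held 1. Gadd45g and Bax, both higher at 30 µg/kg, had no copy within these 250 bases. Btg2 and Ccng1, which held a copy, did not pass the test at that dose. A match describes letters in the window and does not show that either factor binds.

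The libraries held 11.77 to 56.51 M reads on genes (M, reads in units of 1e6), with a median of 17.23 M. Levels are given as CPM, the reads of a gene per M reads on genes, with library sizes scaled by the trimmed mean of M-values (TMM). A gene was called when its Benjamini-Hochberg adjusted p in edgeR's quasi-likelihood test, fitted on all 45 livers and adjusted over 17464 genes within a dose, was under 0.05. Exposure was evident in Cyp1a1, the classic AhR target, which went from 7.50 ± 6.32 CPM (SD, n = 5) in vehicle livers to 7627 ± 1186 CPM (SD, n = 5) at 30 µg/kg, and the other 3 AhR targets listed were also called higher. The hepatocyte marker Alb stood at 111474 CPM in vehicle livers and 105534 CPM at 30 µg/kg and was not called, while the other 4 hepatocyte markers tested were lower, Apoa1 (log2 difference -1.67) and Serpinc1 (-0.43) with the smallest adjusted p. Trp53 itself, the gene for p53, averaged 13.3 ± 1.85 CPM in vehicle livers and 15.9 ± 1.07 CPM at 30 µg/kg, a log2 difference of 0.26 that did not pass the test (edgeR adjusted p = 0.066).

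None of the 10 genes was called at any dose from 0.01 to 3 µg/kg in edgeR, nor in DESeq2 or limma-voom. At an unadjusted p under 0.05 edgeR gave 1 gene at 0.01 µg/kg (Myc, lower), 1 at 0.1 µg/kg (Gadd45b, higher) and 0 at the other 4 of these doses. Cdkn1a and Gadd45b were called at 10 µg/kg, and 6 genes at 30 µg/kg, where Cdkn1a, Gadd45b, Gadd45g, Mdm2 and Bax were higher and Trp53inp1 was lower. Of all genes tested, the share called was 0.0% at 0.01 µg/kg, 0.0573% at 0.03, 0.0229% at 0.1, 0.464% at 0.3, 1.76% at 1 and 7.54% at 3 µg/kg. It was 15.9% at 10 µg/kg, with 8.47% higher, and 29.6% at 30 µg/kg, with 15.5% higher and 14.1% lower. The median log2 fold change of the 10 genes was 0.18 at 10 µg/kg and 0.42 at 30 µg/kg, beside 0.02 over all genes at both doses. At 30 µg/kg 3 genes (Cdkn1a, Gadd45b and Gadd45g) rose by at least 2-fold and were called, as did 8.03% of all genes. Cdkn1a and Mdm2 had every liver at 30 µg/kg above every vehicle liver, a separation seen in 10.3% of all genes. Without vehicle replicate 2 the number called at 30 µg/kg was 3, the largest loss when any 1 liver was left out.

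**Figure D1:**
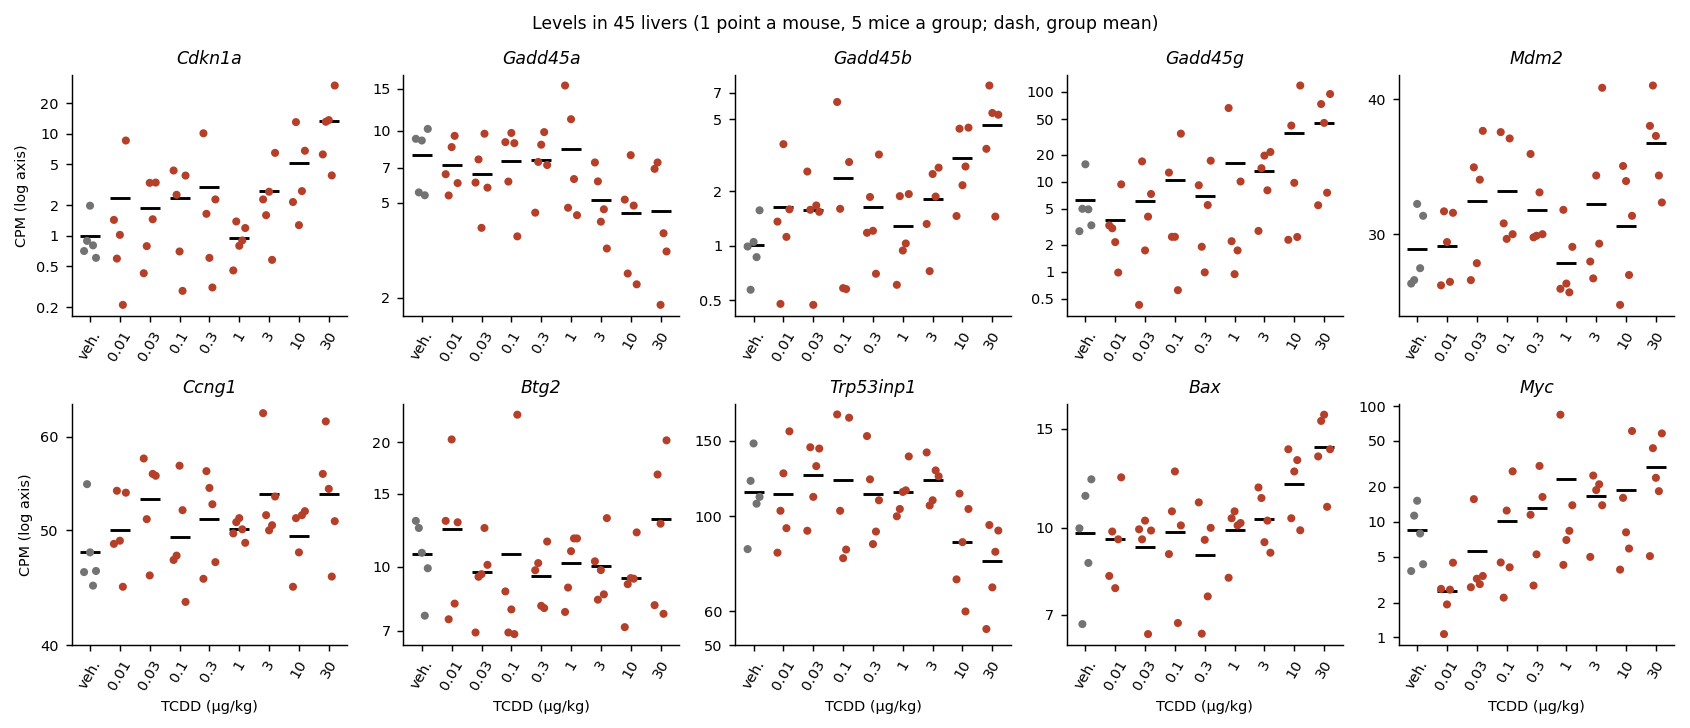
Level of each of the 10 genes in the 45 livers, in CPM on log axes that differ in range between panels, against the dose of TCDD, with vehicle livers in grey, treated livers in red and a dash at each group mean of 5 mice. The mean of Cdkn1a climbs from 0.996 CPM in vehicle livers to 13.3 CPM at 30 µg/kg, while Ccng1 stays between 43.5 and 62.8 CPM in every liver.

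Cdkn1a, the p21 kinase inhibitor (chr17:29090976-29100727, plus strand, GRCm38), showed the largest fitted change of the 10 genes at 30 µg/kg. The 5 vehicle livers held 0.708, 0.890, 1.97, 0.805 and 0.607 CPM, and the 5 livers at 30 µg/kg held 6.27, 13.1, 13.6, 3.90 and 29.7 CPM. The groups did not overlap, and the treated livers differed among themselves by 7.62-fold. The fitted rise was 13.2-fold, a log2 difference of 3.73 (95% confidence interval 2.05 to 5.4, edgeR adjusted p = 0.000553), and the exact permutation test on the 10 livers gave p = 0.007937, two-sided, the smallest that 5 against 5 allows. At 10 µg/kg the livers held 2.14, 13, 1.27, 2.74 and 6.81 CPM, of which 4 lay above every vehicle liver, and the fitted rise was 5.19-fold (adjusted p = 0.0422). That call did not hold when vehicle replicate 1, 2, 4 or 5, or replicate 2 or 5 at 10 µg/kg, was left out (adjusted p from 0.0821 to 0.167), nor with limma-voom (adjusted p = 0.137). It was also lost with p-values adjusted over all genes and doses together. Between these 2 doses the log2 difference was 1.35 (95% confidence interval -0.06 to 2.76, adjusted p = 0.695). At lower doses the livers were mixed, with 1, 2, 3, 2, 0 and 3 of 5 above every vehicle liver in dose order from 0.01 to 3 µg/kg. The highest were 8.58 CPM at 0.01 µg/kg and 10.1 CPM at 0.3 µg/kg, where the remaining livers of both groups stayed at or below 2.27 CPM. Group means were 2.73 CPM at 3 µg/kg, 0.945 at 1, 2.99 at 0.3, 2.35 at 0.1, 1.86 at 0.03 and 2.37 CPM at 0.01 µg/kg. Reads on Cdkn1a were few at the low end, 10 to 32 per vehicle liver and 70 to 385 per liver at 30 µg/kg. Across the dose order the slope was 0.33 log2 units per dose step (adjusted p = 0.00014).

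The 3 GADD45 genes did not move together. Gadd45b (chr10:80930073-80932204, plus strand) rose at both high doses. Its vehicle livers held 0.991, 0.572, 1.05, 0.866 and 1.57 CPM, those at 10 µg/kg held 1.46, 4.43, 2.16, 2.74 and 4.49 CPM, and those at 30 µg/kg held 3.43, 7.67, 5.41, 1.45 and 5.29 CPM. In each of the 2 dose groups 4 of 5 livers exceeded every vehicle liver and 1 fell inside the vehicle range. The fitted rise was 2.98-fold at 10 µg/kg (adjusted p = 0.0351) and 4.52-fold at 30 µg/kg (log2 difference 2.18, 95% confidence interval 1.11 to 3.24, adjusted p = 0.0014, exact permutation p = 0.01587). The call at 10 µg/kg was lost without vehicle replicate 1, 2, 3 or 4, or without replicate 2 or 5 of that dose, where the adjusted p was 0.0608 to 0.1, and with limma-voom (adjusted p = 0.0786). Adjustment over all genes and doses together removed it too.

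Gadd45g (chr13:51846678-51848468, plus strand) had the widest spread. Vehicle livers held 2.83, 5.02, 15.7, 4.95 and 3.29 CPM, and livers at 30 µg/kg held 5.50, 73.4, 45.3, 7.58 and 94.9 CPM. The treated livers fell into 3 far above and 2 within the vehicle range. The fitted rise was 7.1-fold (log2 difference 2.83, 95% confidence interval 0.69 to 4.97, adjusted p = 0.0392), while the exact permutation test gave p = 0.05556. The call was lost in 7 of the 10 fits that left out 1 liver of either group (adjusted p from 0.0541 to 0.105) and with limma-voom (adjusted p = 0.114). It was also lost with p-values adjusted over all genes and doses together. At 10 µg/kg the livers held 2.27, 42.3, 9.76, 2.44 and 118 CPM, with 2 below and 2 above all vehicle livers, and the log2 difference of 2.47 was not called (adjusted p = 0.104). The slope over the dose order was 0.40 log2 units per step (adjusted p = 0.00018).

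Gadd45a (chr6:67035096-67037457, minus strand), the member of the family best known as a p53 target, went the other way. Its vehicle livers held 9.27, 5.53, 9.12, 5.38 and 10.2 CPM, and livers at 30 µg/kg held 6.94, 7.38, 1.87, 3.73 and 3.13 CPM. The 2 groups overlapped, with 3 treated livers below all vehicle livers and 2 inside their range. The log2 difference was -0.78 at 30 µg/kg (95% confidence interval -1.49 to -0.07, adjusted p = 0.091) and -0.81 at 10 µg/kg (adjusted p = 0.111), neither of which passed. Over the dose order the slope was -0.09 per step, which did pass (adjusted p = 0.0201). The exons of Gadd45a overlap those of E230016M11Rik on the opposite strand, which held 19 to 174 reads per liver. The kit does not mark strand, so reads from the shared bases cannot be assigned to either gene with certainty.

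**Figure D2:**
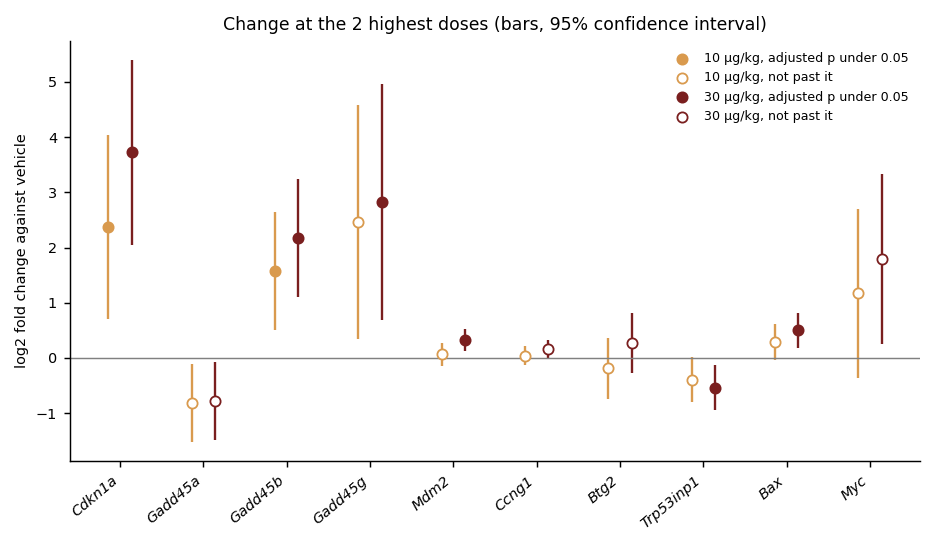
Fitted log2 fold change against vehicle at 10 and 30 µg/kg TCDD for the 10 genes, with 95% confidence intervals from edgeR as bars; filled points have an adjusted p under 0.05. At 30 µg/kg 5 filled points lie above 0, from 0.33 for Mdm2 to 3.73 for Cdkn1a, and 1 lies below, Trp53inp1 at -0.54.

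Among the regulators of p53 itself the changes were small. Mdm2 (chr10:117688875-117710758, minus strand) held 27, 27.2, 32, 27.9 and 31.2 CPM in vehicle livers and 37.8, 41.2, 37, 34 and 32.1 CPM at 30 µg/kg. Every treated liver was above every vehicle liver, although the lowest exceeded the highest vehicle liver by little. The rise of 25.3% (log2 difference 0.33, 95% confidence interval 0.12 to 0.53, adjusted p = 0.0143, exact permutation p = 0.007937) was small beside the other calls. It was lost when libraries were scaled to 6 reference genes of the study's PCR (adjusted p = 0.12) and without replicate 2 at 30 µg/kg (adjusted p = 0.053). The call also did not hold with p-values adjusted over all genes and doses together. Among the 6 reference genes Rps13 averaged 0.366 CPM in vehicle livers, a level of few reads. B2m was itself called lower at 30 µg/kg (log2 difference -0.51) and Hprt higher (0.29). For Mdm2 the log2 difference at 10 µg/kg was 0.07 (95% confidence interval -0.14 to 0.28).

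Ccng1 (chr11:40748552-40755311, minus strand), which encodes cyclin G1, was the steadiest of the 10 genes. It ranged from 44.9 to 54.7 CPM in vehicle livers and from 45.7 to 61.8 CPM at 30 µg/kg, and the groups overlapped. The log2 difference of 0.16 had a 95% confidence interval of -0.0 to 0.33 and was not called (adjusted p = 0.139). It was called without replicate 4 at 30 µg/kg (0.22, adjusted p = 0.0487) and without TMM factors (0.38, adjusted p = 0.00211), a scaling under which the median of all genes was 0.23.

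Trp53inp1 (chr4:11156431-11174379, plus strand), whose product promotes p53 activity and autophagy, was the only gene of the 10 called lower at 30 µg/kg. Vehicle livers held 83.8, 121, 148, 107 and 111 CPM, and livers at 30 µg/kg held 54.5, 95.4, 68.2, 82.6 and 92.6 CPM. Of the treated livers 3 lay below every vehicle liver and 2 lay between the lowest and the next vehicle liver. The level fell by 31.1% (log2 difference -0.54, 95% confidence interval -0.95 to -0.13, adjusted p = 0.0415, exact permutation p = 0.02381). This call sat close to the threshold and was lost in 6 of the 10 fits without 1 liver (adjusted p from 0.0521 to 0.138) and without TMM factors (adjusted p = 0.196). Adjustment of p-values over all genes and doses together also removed it. Means stayed between 113 and 125 CPM from 0.01 to 3 µg/kg and were 87.0 CPM at 10 µg/kg and 78.7 CPM at 30 µg/kg.

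Btg2 (chr1:134075170-134079120, minus strand), an antiproliferative p53 target, was not called at any dose. It ranged from 7.61 to 12.9 CPM in vehicle livers and from 7.69 to 20.2 CPM at 30 µg/kg, with a log2 difference of 0.28 (95% confidence interval -0.27 to 0.82, adjusted p = 0.482).

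Bax (chr7:45461697-45466898, minus strand), the apoptosis effector, rose modestly and was called at 30 µg/kg only. Vehicle livers held 9.98, 6.74, 11.4, 8.66 and 12.2 CPM, and livers at 30 µg/kg held 13.4, 15.5, 15.9, 10.9 and 13.8 CPM. In the treated group 4 of 5 livers were above all vehicle livers and 1 was inside their range. The rise was 1.42-fold (log2 difference 0.50, 95% confidence interval 0.18 to 0.82, adjusted p = 0.0142, exact permutation p = 0.02381). It was not called without vehicle replicate 2, the lowest vehicle liver (adjusted p = 0.0609), or with p-values adjusted over all genes and doses together (adjusted p = 0.0507). The group mean was 12 ± 1.74 CPM at 10 µg/kg (SD, n = 5), a log2 difference of 0.29 (adjusted p = 0.232).

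Myc (chr15:61985391-61990374, plus strand) was high in some treated livers and low in others. Vehicle livers held 3.75, 11.3, 15.2, 7.92 and 4.30 CPM, and livers at 30 µg/kg held 5.05, 43.3, 24, 18.4 and 58.1 CPM. In the treated group 4 of 5 livers exceeded every vehicle liver. The log2 difference was 1.80 (95% confidence interval 0.26 to 3.34) with an adjusted p of 0.0714 in edgeR and an exact permutation p of 0.05556, so the dose was not called. The single highest Myc level, 84.3 CPM, belonged to 1 liver at 1 µg/kg. Without that liver, which enters the estimate of spread, the adjusted p at 30 µg/kg was 0.0454. The lowest group was 0.01 µg/kg, at 1.07 to 4.43 CPM with 4 of 5 livers below every vehicle liver, a log2 difference of -1.68 that was not called (adjusted p = 0.487). Several group means rested on 1 liver: 27.3 CPM in a group with a mean of 10.1 CPM at 0.1 µg/kg, 84.3 CPM in a group with a mean of 23.6 CPM at 1 µg/kg and 60.9 CPM in a group with a mean of 19.0 CPM at 10 µg/kg. Group medians did not climb evenly, at 11.5, 8.35, 18.8, 8.11 and 24 CPM from 0.3 to 30 µg/kg, and the slope over the dose order, fitted on all livers, passed at 0.30 log2 units per step (adjusted p = 0.000498).

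In the F test for any difference among the 9 groups Cdkn1a, Gadd45b, Gadd45g, Bax and Myc were called, 5 of the 10, beside 28.8% of all genes. In the slope over the dose order Cdkn1a, Gadd45b, Gadd45g, Bax and Myc were called higher, beside 20.8% of all genes, and Gadd45a and Trp53inp1 lower, beside 19.7%. Mdm2, called at 30 µg/kg, passed neither test (edgeR adjusted p = 0.0953 in the F test and 0.0844 for the slope), and Trp53inp1 did not pass the F test (adjusted p = 0.0855). Between 10 and 30 µg/kg none of the 10 genes was called by edgeR, beside 0.613% of all genes, and 1, Mdm2, had an unadjusted p under 0.05 in that fit. The tests share the same livers and are not separate evidence.

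By length-scaled level (RPKM, CPM divided by the summed exon length in kilobases) the order of the vehicle means was Trp53inp1 at 17.6, Ccng1 at 13.7, Bax at 6.21, Mdm2 at 5.72, Gadd45g at 5.41, Gadd45a at 4.48, Btg2 at 3.91, Myc at 3.12, Gadd45b at 0.635 and Cdkn1a at 0.280. Bax, Mdm2 and Gadd45a each differed from Gadd45g by less than its SD of 4.51 (n = 5), and Btg2 and Myc differed by less than the SD of Myc, 1.77. At 30 µg/kg the order of the means had changed: Gadd45g led at 38.6 ± 33.7 RPKM (SD, n = 5) and Cdkn1a reached 3.75 ± 2.84 RPKM, still below Bax at 8.81 ± 1.27 RPKM.

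The wider p53 pathway was read from lists of genes chosen by role, with earlier results of these data known. The counts stand beside 29.6% of all genes called at 30 µg/kg, with 15.5% higher and 14.1% lower. Among 9 tested genes for p53 and its regulators 1 was called higher at 30 µg/kg, the checkpoint kinase Chek2 (log2 difference 0.73, adjusted p = 0.00189), and 1 lower, the p53 ubiquitin ligase Cop1 (-0.46, adjusted p = 0.0107). The median log2 difference of that list was 0.06. Of 17 other growth arrest and stress targets 4 were higher and 2 lower, with a median of 0.24. Zmat3, an RNA-binding p53 target, rose by 0.66 and Phlda3, an AKT inhibitor, by 1.08 on the log2 scale, while Fdxr, the mitochondrial ferredoxin reductase, was at -0.61 and Ei24 at -0.29.

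The apoptosis targets of p53 held the largest share of calls of the p53 lists, 7 higher and 2 lower of 12. Over all genes 15.5% were called higher and 14.1% lower. The median log2 difference of the 12 targets was 0.56 at 30 µg/kg. The death receptor gene Tnfrsf10b (TRAIL receptor) stood at 0.178 ± 0.137 CPM in vehicle livers and 1.36 ± 0.481 CPM at 30 µg/kg, a log2 difference of 2.85 (adjusted p = 1.94e-05). Its relative Tnfrsf23, a decoy TRAIL receptor, went from 0.287 to 1.44 CPM (log2 difference 2.34, adjusted p = 9.73e-07). Vehicle livers held as little as 0.0619 CPM of Tnfrsf10b and 0.0616 CPM of Tnfrsf23, so few reads lie behind these vehicle means. The BH3-only genes Bid and Bbc3 (Puma), which activate Bax, went the other way. Bid fell by 45% (adjusted p = 3.14e-07) and Bbc3 by 58% (adjusted p = 0.0071). Of 11 other Bcl2 family genes none was higher, 2 were lower and 9 were not called. The lower ones were the survival genes Bcl2l1 (-0.61, adjusted p = 0.000106) and Mcl1 (-0.45, adjusted p = 0.00458). Of 8 DNA repair targets 2 were higher (Xpc at 0.44 and Polk at 0.36) and 2 lower (Mgmt at -0.38 and Ercc5a at -0.27).

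Other brakes on division moved in both directions, beside 15.5% of all genes called higher and 14.1% lower at 30 µg/kg. Of 5 other CDK inhibitors tested Cdkn1b (p27) was higher by 0.36, and Cdkn2c (p18) at -1.0 and Cdkn1c (p57) at -1.02 were lower, with all 5 treated livers below all vehicle livers for both. Of the 4 relatives of Btg2, Btg1 went from 30.7 ± 4.84 to 12.9 ± 2.02 CPM (log2 difference -1.25, adjusted p = 3.45e-06) and Tob2 was at -0.97 (adjusted p = 0.00755), while the other two were not called. Proliferation genes were higher: 13 of 20 rose, 1 fell and 6 were not called, with a median log2 difference of 1.27. Foxm1, a transcription factor of dividing cells, went from 0.095 to 0.960 CPM (log2 difference 3.18, adjusted p = 0.000409). Its vehicle livers ranged from 0.0 to 0.191 CPM, a level of few reads per library. Top2a, the topoisomerase of replicating cells, went from 0.722 to 4.54 CPM (2.64, adjusted p = 0.000464). Cdk2 was the gene that fell (-0.46, adjusted p = 0.0143). The summed level of the list overlapped between the groups, at 166 to 199 CPM in vehicle livers and 115 to 280 CPM at 30 µg/kg. Its largest part was Ccnd1, which was not called. Ccnd1 held 90.9 to 121 CPM in vehicle livers and 33.9 to 175 CPM at 30 µg/kg.

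**Figure D3:**
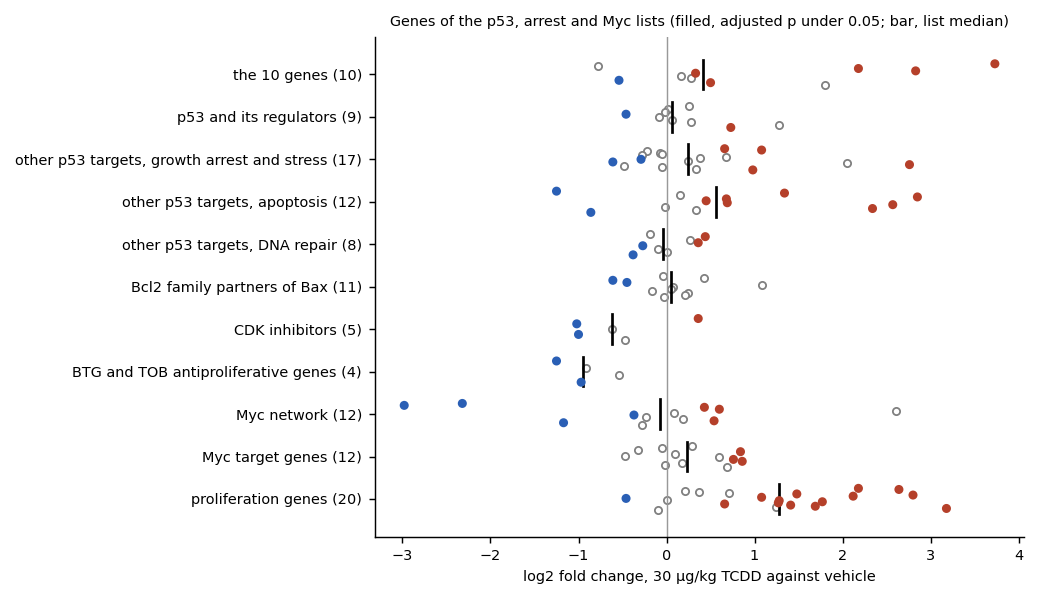
Fitted log2 fold change at 30 µg/kg TCDD against vehicle for the 10 genes and for 10 lists of related genes, with 1 point per tested gene, filled red or blue where the adjusted p was under 0.05, open otherwise, and a bar at the list median. The apoptosis targets (median 0.56) and proliferation genes (median 1.27) lie mostly above 0, and the BTG and TOB genes (median -0.95) lie below 0.

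Partners of Myc diverged. In the Myc network 3 of 12 genes were higher and 4 lower at 30 µg/kg, beside 15.5% and 14.1% of all genes. Mycl, a Myc paralog, went from 9.23 ± 2.30 to 1.19 ± 0.325 CPM (log2 difference -2.98, adjusted p = 1.74e-12), and Mlxipl, the glucose-responsive factor ChREBP, from 331 to 147 CPM (-1.17, adjusted p = 7.92e-08). Max, the dimer partner of Myc, was higher by 0.43 and its competitor Mxd1 by 0.60. Of 12 Myc target genes 3 were higher and none lower, with a median of 0.23, led by lactate dehydrogenase Ldha (0.76, adjusted p = 0.000295) and cyclin D2, Ccnd2 (0.86, adjusted p = 0.000605). Of 12 immediate early genes 5 were higher, Ier3 (2.74) and Atf3 (1.88) with the smallest adjusted p. In the integrated stress response list 3 of 9 were higher, led by Fgf21 (5.48, adjusted p = 5.8e-10) and Asns (3.19, adjusted p = 2.1e-05), with a median of -0.10.

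Markers of other liver cells also moved at the high doses. Their counts stand beside 15.5% of all genes called higher and 14.1% lower at 30 µg/kg. At 30 µg/kg 5 of 12 macrophage and leukocyte markers were higher and none lower, 4 of 8 stellate cell markers were higher, 4 of 6 endothelial markers were higher, none of 5 cholangiocyte markers was called by edgeR and 4 of 5 hepatocyte markers were lower. The summed level of the macrophage and leukocyte markers was 162 to 258 CPM in vehicle livers and 154 to 437 CPM at 30 µg/kg, and that of the stellate markers 230 to 339 and 376 to 571 CPM. Summed endothelial markers went from 128 to 169 CPM to 151 to 249 CPM, and summed cholangiocyte markers from 52.1 to 77.5 CPM to 53 to 70.2 CPM. Hepatocyte markers summed to 107536 to 137814 CPM and 101461 to 150634 CPM. Single genes led several of these sums in vehicle livers. They were Alb for hepatocytes (111474 CPM), Dcn for stellate cells (186 CPM) and Spp1 for cholangiocytes (58.1 CPM). Clec4f (70.4 CPM) and Cd5l (57.0 CPM), neither called at 30 µg/kg, led the macrophage and leukocyte sum. The part of the marker shifts in the changes of the 10 genes was not tested.

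Much of the variation in these genes lay between mice of the same dose. The SD of log2 CPM within a dose group was 1.84 for Gadd45g, 1.3 for Cdkn1a, 1.25 for Myc and 0.86 for Gadd45b, while the median over 12412 genes with a mean of at least 1 CPM was 0.24. Gadd45g stood above percentile 99.8 of those genes, Cdkn1a at 99.8, Myc at 99.7 and Gadd45b at 98.8. Gadd45a (0.58) and Btg2 (0.43) were also above most genes, Bax (0.26) and Trp53inp1 (0.34) nearer the middle, and Mdm2 (0.16) and Ccng1 (0.12) below most. Reads per liver ran from 3 to 411 for Cdkn1a, 6 to 153 for Gadd45b, 6 to 3374 for Gadd45g and 18 to 1736 for Myc. The part of counting error in these spreads was not tested.

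Several of the 10 genes deviated together from liver to liver. Each gene's deviation from its own group mean was taken in all 45 livers, which removes the mean effect of dose. Differences between mice in their response to the same dose remain in these deviations. By 100000 permutations within groups 65 relations were tested, 45 of them between the 10 genes. This comparison was added after the values had been seen. After Benjamini-Hochberg adjustment 8 pairs were positive and 1 was negative. Gadd45g and Myc had the closest relation (Pearson r = 0.80, Spearman rho = 0.76, permutation p = 1e-05 for each, the smallest these permutations can give, adjusted p = 0.00065), and both deviated to the same side in 35 of 45 livers. Without the 2 livers farthest from the median of Gadd45g the r was 0.74. It was 0.74 in the 30 livers from vehicle to 1 µg/kg and 0.90 in the 15 livers from 3 to 30 µg/kg.

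Cdkn1a was related to Trp53inp1 (r = 0.65, rho = 0.63, adjusted permutation p = 0.0011 for r), although the dose means of these genes went in opposite directions at 30 µg/kg. The r of this pair was 0.74 in the 30 livers at lower doses and 0.44 in the 15 at higher doses, where its permutation p was 0.14. Cdkn1a was also related to Gadd45g (r = 0.53, rho = 0.56, 34 of 45 livers to the same side) and Btg2 (r = 0.53, rho = 0.59), and inversely to Gadd45a (r = -0.53, rho = -0.56, 12 of 45 livers to the same side). The remaining positive pairs were Gadd45g with Trp53inp1 (r = 0.61, rho = 0.62), Gadd45b with Btg2 (r = 0.54, rho = 0.55), Btg2 with Trp53inp1 (r = 0.52, rho = 0.52) and Gadd45g with Btg2 (r = 0.47, rho = 0.46). For these 8 pairs the adjusted permutation p was 0.0011 to 0.02 for r and 0.0016 to 0.021 for rho, and each r was at least 0.45 in size without the 2 farthest livers on either axis. By rho alone 3 more pairs passed, Gadd45b with Cdkn1a, Gadd45g and Trp53inp1. The relations of Btg2 with Gadd45b and Gadd45g had r of 0.74 and 0.71 in the 15 livers from 3 to 30 µg/kg and of 0.46 and 0.35 in the 30 livers below, a difference that was not tested. Cdkn1a and Myc did not pass (r = 0.15, adjusted permutation p = 0.69), nor did either with Bax (r = 0.22 and -0.07). None of the 10 genes was related to library depth after adjustment, nor by r to the summed macrophage and leukocyte markers, where Bax came closest (r = 0.39, rho = 0.47, adjusted permutation p = 0.075 for r and 0.021 for rho). Clec4f and Cd5l were the largest parts of that marker sum. Sequencing pools and times of tissue collection are not in the labels, so no values within them could be given.

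**Figure D4:**
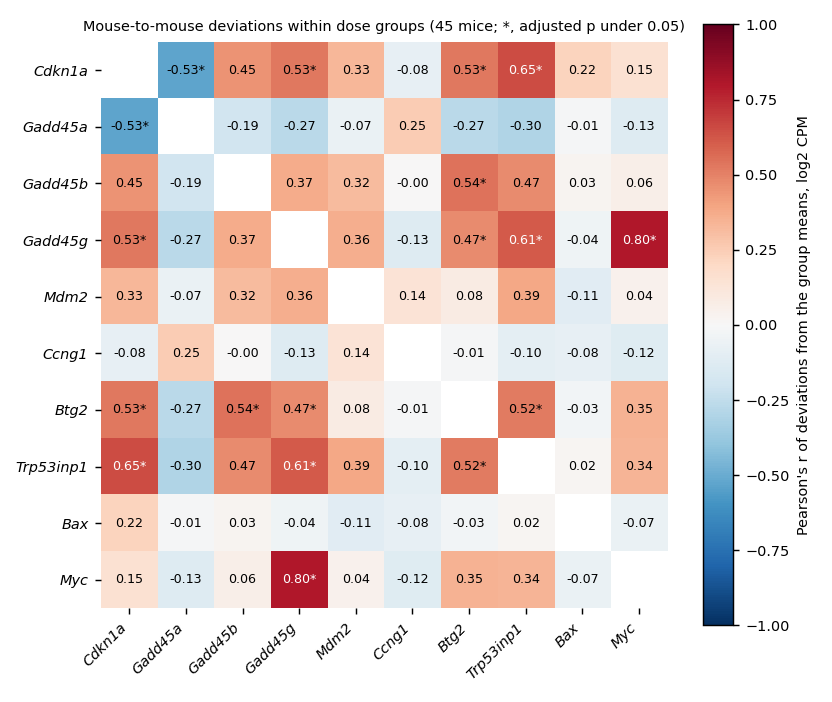
Pearson's r between the 10 genes of the deviations of log2 CPM from the group mean in 45 livers, on a color scale from -1 (blue) to 1 (red), with an asterisk where the permutation p adjusted over 65 relations was under 0.05. The darkest cell is Gadd45g with Myc at 0.80, and Bax, Mdm2 and Ccng1 carry no asterisk.

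**Figure D5:**
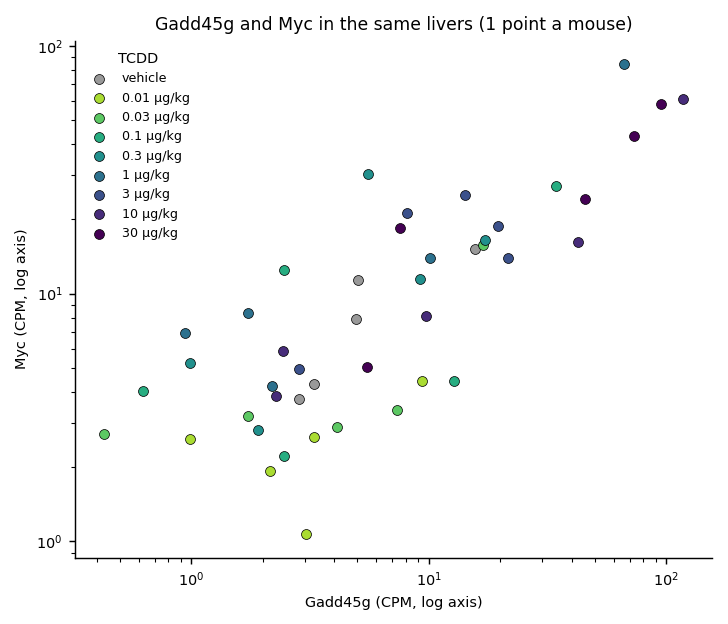
Level of Myc against Gadd45g, both in CPM on log axes, with 1 point per liver colored by dose (vehicle in grey, then light to dark with dose). The liver at 1 µg/kg with 84.3 CPM of Myc also held 66.3 CPM of Gadd45g, and the 2 highest Gadd45g livers, at 118 and 94.9 CPM, held 60.9 and 58.1 CPM of Myc.

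Over the 9 group means genes among the most alike to each of the 5 genes called in the F test were listed, by Pearson's r among 12412 genes. Cdkn1a was close to Eif2b2 (r = 0.987) and Grhl1, and Gadd45b to Grhl1 (r = 0.990), Eme2 and L3mbtl2. Gadd45g was close to Unc5b (r = 0.986) and Myom1, Bax to Cystm1 (r = 0.992), Gulo and Gabbr1, and Myc to Ybx3 (r = 0.977), Mup-ps14 and Pdha1. With 9 points and so many genes searched such values are a description only.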

How the data were processed

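RNA of 45 mouse livers, 5 in each of 9 groups given by the labels' dose, was sequenced as single reads of 50 bases from an Illumina TruSeq library. The authors aligned the reads with TopHat 1.4.1 to GRCm38 and deposited raw counts per gene from HTSeq 0.6.1, in which reads that align to several places are left out. These counts were used as deposited. Rows that name no gene were left out. Reads outside genes or ambiguous between genes made up 10.7 to 18.4% of the sum of these and the reads on genes per library. Genes with more than 4 reads in any library (17464 of 39179) were fitted with edgeR 4.0.16 (R 4.3.3), TMM factors and the quasi-likelihood test on all 45 livers, with Benjamini-Hochberg adjustment within each comparison. The study's own empirical Bayes step could not be repeated here. DESeq2 1.42.0 and limma-voom 3.58.1 were alternatives, and the code was tested on simulated data. Exact permutation tests of 5 against 5 livers and permutations within groups were made on log2 CPM in Python 3.11.15 and are two-sided.

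The 10 genes and the lists were chosen with earlier results of these data known. Text names all 10, Trp53 and Cyp1a1, in each list the 2 genes higher and the 2 lower with the smallest adjusted p at 30 µg/kg, and the 3 genes most alike to each gene called in the F test. A few genes that this rule would name are not reported here. Counting error depends on depth, 11.77 to 56.51 M reads on genes. Replicate numbers are given in accession order and only name the mice. Positions are from GENCODE on GRCm38. Trp63, Trp73, Cdkn2a and Rprm had too few reads to be tested and Tf was not matched.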

Additional observations from a re-analysis of the deposited data

Results flagged for a closer look

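In 13 of 90 groups of 5 livers (10 genes in 9 groups) the highest or lowest liver stood apart from the rest by Dixon's test on CPM. For normal values chance marks about 1 group in 20, a rate that was not measured for values as skewed as these. The values, in CPM, are given without explanation. For Cdkn1a they were 1.97 in vehicle replicate 3 (others 0.607 to 0.890), 8.58 in replicate 5 at 0.01 µg/kg (others 0.210 to 1.43) and 10.1 in replicate 1 at 0.3 µg/kg (others 0.311 to 2.27). For Gadd45g they were 15.7 in vehicle replicate 3 (others 2.83 to 5.02), 9.39 in replicate 5 at 0.01 µg/kg (others 0.982 to 3.28) and 66.3 in replicate 1 at 1 µg/kg (others 0.942 to 10.1). For Myc they were 15.7 in replicate 2 at 0.03 µg/kg (others 2.72 to 3.40), 84.3 in replicate 1 at 1 µg/kg (others 4.24 to 13.9) and 60.9 in replicate 5 at 10 µg/kg (others 3.86 to 16.1). Btg2 stood at 23.3 in replicate 5 at 0.1 µg/kg (others 6.87 to 8.71) and Ccng1 at 62.8 in replicate 1 at 3 µg/kg (others up to 53.4). Bax was low in replicate 4 at 0.03 µg/kg, at 6.47 (others 9.54 to 10.3), and in replicate 1 at 1 µg/kg, at 8.15 (others 10.1 to 10.7). Vehicle replicate 3, replicate 5 at 0.01 µg/kg and replicate 1 at 1 µg/kg were each marked for more than 1 gene.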

How the results depend on the processing

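At 30 µg/kg all 10 genes kept the direction of their change in every alternative run, and Cdkn1a and Gadd45b were called in each. Log2 differences ranged over the alternatives from 3.21 to 4.13 for Cdkn1a (adjusted p up to 0.00338), 1.92 to 2.41 for Gadd45b (up to 0.00729), 2.30 to 3.49 for Gadd45g (up to 0.119), 0.27 to 0.55 for Mdm2 (up to 0.12), 0.41 to 0.72 for Bax (up to 0.0609), -0.63 to -0.33 for Trp53inp1 (up to 0.196), 1.41 to 2.11 for Myc (from 0.0127 to 0.195), -1.01 to -0.55 for Gadd45a (from 0.0426 to 0.262) and 0.10 to 0.38 for Ccng1 (from 0.00211 to 0.692). The number of the 10 genes called at 30 µg/kg, 6 by edgeR, was 2 when p-values were adjusted over all genes and doses together, 3 when a change also had to reach 2-fold, 4 with scaling to the PCR reference genes, 7 without TMM factors, and 3 to 7 with 1 liver left out. At 10 µg/kg, 2 by edgeR, it was 0 with adjustment over all doses, 0 with limma-voom and 0 to 3 with 1 liver left out. Without TMM factors the median of all genes at 30 µg/kg moved from 0.02 to 0.23. Of the 6 PCR reference genes used for scaling, 1 was itself called higher and 1 lower at 30 µg/kg, and Rps13 had few reads. Directions reversed with 1 liver left out, none of them called, for Trp53inp1 at 3 µg/kg (range -0.0 to 0.2, lowest without vehicle replicate 1), Bax at 3 µg/kg (-0.02 to 0.17, lowest without vehicle replicate 2) and Myc at 10 µg/kg (-0.03 to 1.47, lowest without replicate 5 of that dose). The fit without replicate 1 at 1 µg/kg was chosen after seeing the data. The cause of these differences was not tested. No paired analysis was possible because the labels give no replicate numbers shared between groups. Depth limits Cdkn1a and Gadd45b, with 9 to 32 reads per vehicle liver.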

Other observations

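Genes outside the 10 followed the liver-to-liver deviations within dose groups, and they were named after their values were seen, among 12412 genes with a mean of at least 1 CPM. Genes among the most alike to Gadd45g, beside Myc, were Dusp1, a MAP kinase phosphatase (r = 0.80), then Tnfrsf1b and Errfi1 (r = 0.77 each), and Sgk1 and Plk3, both stress-responsive kinases (r = 0.76 each). Most opposite was Arrdc3, an arrestin-domain gene (r = -0.81). Dusp1, Tnfrsf1b, Errfi1 and Plk3 were not called at 30 µg/kg, with log2 differences of 0.30, 0.12, -0.25 and -0.28 (edgeR adjusted p of 0.75 to 0.775). Sgk1 was called higher (0.83, adjusted p = 0.0338).

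Cdkn1a was most alike to Skil, a regulator of TGF-beta signaling (r = 0.82), and most opposite to Dbp, a clock output gene, Tprkb and Tdp2 (r = -0.80 each). Dbp averaged 166 CPM in vehicle livers and 61.5 CPM at 30 µg/kg (log2 difference -1.43, edgeR adjusted p = 0.0661). These r values are over the same 45 livers that were searched and carry no test.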
